A study of Homo sapiens with 8 samples.

Results

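The 10 genes described here, EPHB4, ROBO4, KDR, FLT1, TEK, CDH5, PECAM1, NOS3, VWF and ENG, are genes known for their roles in endothelial cells, which line blood vessels. They were chosen by name, with earlier results of these data known, and 205 of the 327994 genomic regions in the 6 deposited lists carry the name of at least 1 of them. The lists come from DNA captured in a test tube with synthetic RNA oligonucleotides (oligos) taken from the long noncoding RNAs MEG3 and GATA6-AS. No expression was measured, so nothing here says whether a gene was active.

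The experiment asked where in the genome short stretches of these RNAs hold on to DNA. Genomic DNA of H1, an established human embryonic stem cell line, was freed of RNA and sheared to fragments averaging 200 to 300 bp. In each of 8 reactions 6 to 7 µg of it was incubated, for 1 h at 37 °C with 50 mM KCl and 5 mM MgCl2 in the buffer, and was then pulled down on streptavidin beads. There were 4 groups of 2 libraries, prepared in independent experiments: DNA with 20 pmol of the biotinylated MEG3 TFR1 oligo, the MEG3 TFR2 oligo or the GATA6-AS TFR1 oligo, and DNA with no oligo. All groups share the same DNA source, which is not endothelial, and the naked fragments carry no chromatin. The sequences of the oligos were not used here.

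Each oligo was compared with the no-oligo libraries, which all 3 comparisons share. A captured region has more signal with the oligo and a control region more signal without it, and both come with 1 log2 ratio of oligo over no oligo, a value of the authors. On this scale 1 is a 2-fold difference. Exact ratios came back from it, as for the VWF region with a log2 ratio of 2.58, which is 6-fold. The lists give no value per library, no count and no p-value, so the depth, the error of a ratio and the spread between the libraries are unknown, and no difference below was tested. The whole lists hold 89739 captured and 12649 control regions with MEG3 TFR1, 73546 and 10944 with MEG3 TFR2, and 104786 and 36330 with GATA6-AS TFR1, so their lengths differ.

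Endothelial identity rests on a small set of surface proteins. VEGF receptors drive vessel growth, the angiopoietin receptor and endoglin steady the new vessels, and ephrin and Slit-Robo signals guide them, while cadherin and PECAM-1 hold neighbouring cells together. Long noncoding RNAs can reach DNA directly by forming a triple helix, with the RNA as a further strand in the major groove of a duplex that has an unbroken run of purines (A and G) on one side. GATA6-AS is known as an antisense RNA of endothelial cells, and MEG3 as an RNA that binds GA-rich sites near genes of TGF-beta signalling, the pathway in which endoglin is a co-receptor.

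The gene names in the lists and the positions of the regions did not always match. A name without a mark stands for a gene the region overlaps and a marked name for a flanking gene. Placed by the ends of each gene in the RefSeq table of GRCh38.p14, 197 regions lay inside the 10 genes, 173 captured and 24 control, and 47 of the captured and 1 of the control regions did not name the gene they lay in. Along EPHB4, the 9 captured regions of GATA6-AS TFR1 named RP11-126L15.4, TRIP6, MIR6875, SRRT, UFSP1, ACHE and RN7SL549P as flanking genes in turn, then no gene, and only the region nearest the gene's start named EPHB4. The same start at chr7:100824101 was attributed to MIR6875 in the MEG3 TFR1 list and to RN7SL549P in the GATA6-AS TFR1 list. In EPHB4 16 of 18 captured regions went without the gene's name, in NOS3 13 of 19, in CDH5 and ENG 5 each of 9 and 19, in TEK 4 of 9, in ROBO4 3 of 10 and in FLT1 1 of 26, and in KDR, PECAM1 and VWF none of 3, 11 and 49 did. Over the whole lists 72.9%, 73.2% and 74.5% of captured regions inside genes with a listed name gave that gene (MEG3 TFR1, MEG3 TFR2, GATA6-AS TFR1), against 85.2%, 84.7% and 77.0% of control regions. The cause was not tested. In the other direction, 149 of 155 regions with an unmarked name of the 10 genes lay inside that gene, and the 6 others named PECAM1 (5, up to 14.9 kb away) or EPHB4 (1, 0.928 kb away). The 50 regions that named one of the genes only as flanking lay a median of 42.7 kb from it (0.546 to 98.0 kb), 14 of them with another whole gene in between. The genes are therefore described by position below, with counts by name beside the first totals.

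**Figure D1:**
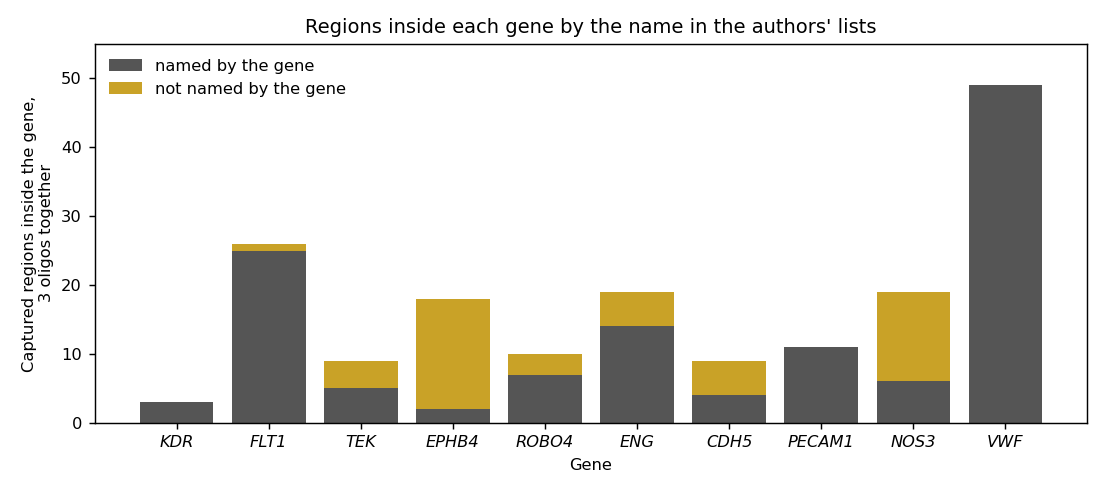
Number of captured regions inside each of the 10 genes, with the lists of the 3 oligos added together (vertical axis, regions), split into those that carry the gene's name without a mark and those that do not. Most regions in EPHB4 (16 of 18) and NOS3 (13 of 19) lack the name, while all 49 regions in VWF carry it.

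By position, all 10 genes held a captured region of MEG3 TFR1, where 59.9% of the 20037 protein-coding genes did. For MEG3 TFR2 it was 9 of 10 (background 56.7%), all but CDH5, and for GATA6-AS TFR1 9 of 10 (background 66.9%), all but KDR. By the authors' unmarked names the counts were 7, 8 and 8 of 10, against backgrounds of 39.9%, 38.3% and 46.0%. A captured region of each of the 3 oligos lay in 8 of the 10 genes, against 42.7% of all protein-coding genes. With 10 genes, and with genes of different length, these shares describe the list and were not tested. Only ROBO4 (14.2 kb) and NOS3 (23.6 kb) were shorter than the median protein-coding gene, 24.1 kb, and FLT1 reached 194.8 kb. A longer gene has more room for a region, and no background here or below was matched for length. The captured regions inside the genes numbered 48 with MEG3 TFR1, 51 with MEG3 TFR2 and 74 with GATA6-AS TFR1, with median log2 ratios of 1.27, 1.49 and 1.34, beside 1.41, 1.44 and 1.34 for the whole lists. In height, then, the regions in these genes lay close to the middle of their lists with MEG3 TFR2 and GATA6-AS TFR1, and below it with MEG3 TFR1.

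At the transcription start, ROBO4, NOS3 and ENG had a captured region of GATA6-AS TFR1 across the start itself, and ROBO4 also one of MEG3 TFR1. RefSeq start sites were matched for 7 of the 10 genes. VWF, CDH5 and PECAM1 had no entry, so a region at their starts could not be counted here. In the window from 250 bases before to 50 bases after the start, 3 of 7 genes overlapped a captured region of GATA6-AS TFR1 (background 19.5% of 15843 protein-coding genes with a start), 1 of 7 of MEG3 TFR1 (8.33%) and 0 of 7 of MEG3 TFR2 (3.91%). Within 1 kb of the start the counts were 4 (EPHB4, ROBO4, NOS3, ENG) against 41.0%, 3 (ROBO4, KDR, ENG) against 22.1%, and 3 (ROBO4, NOS3, ENG) against 14.2%. The GATA6-AS TFR1 region at ROBO4, chr11:124897751-124898200, had a log2 ratio of 1.38, and the MEG3 TFR1 region overlapping it, chr11:124897501-124898050, one of 1.26. At NOS3 the GATA6-AS TFR1 region chr7:150993201-150993800 stood at 1.88, and a MEG3 TFR2 region that ended 282 bp before the start, chr7:150993151-150993500, at 2.19. NOS3 has 2 listed starts, chr7:150993782 and chr7:150993804, and the GATA6-AS TFR1 region crosses only the former. Both lie inside the RefSeq gene, which begins at chr7:150991017, so the MEG3 TFR2 region counts as inside it. The region at ENG, chr9:127854651-127855050, stood at 1.35. EPHB4 came next, with a GATA6-AS TFR1 region of 1.52 that stopped 0.473 kb inside the gene, and KDR had a MEG3 TFR1 region of 1.19 only 95 bp inside it. FLT1 and TEK had no captured region of any oligo within 1 kb of a start: the nearest lay 3.37 kb (FLT1, MEG3 TFR1) and 8.05 kb (TEK, MEG3 TFR2) away.

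The 250 bases before the start are shown for the 3 genes whose start was captured and, for contrast, for EPHB4, KDR and FLT1, whose windows overlapped no captured region. They are from RefSeq, GRCh38.p14, read 5′ to 3′ on the strand of the gene: ROBO4 chr11:124897866-124898115, minus strand; NOS3 chr7:150993532-150993781, plus strand, before the first of its 2 listed starts; ENG chr9:127854659-127854908, minus strand; EPHB4 chr7:100827524-100827773, KDR chr4:55125596-55125845 and FLT1 chr13:28495129-28495378, all minus strand. The GATA6-AS TFR1 regions cover all 250 printed bases of ROBO4, NOS3 and ENG, and the MEG3 TFR1 region covers the 185 bases of ROBO4 nearest the start. Capitals mark the motif GAGAGA, the motif GGAGGA, or an unbroken purine run of at least 12 bases, on either strand. A motif whose purines lie on the other strand appears here as its complement, a run of C and T, and GGAGGA may lie within a run.
ROBO4: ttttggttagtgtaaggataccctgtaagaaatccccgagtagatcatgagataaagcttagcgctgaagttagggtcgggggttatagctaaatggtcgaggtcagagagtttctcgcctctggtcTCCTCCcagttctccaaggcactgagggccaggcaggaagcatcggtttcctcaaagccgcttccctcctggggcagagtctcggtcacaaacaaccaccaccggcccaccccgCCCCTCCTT
NOS3: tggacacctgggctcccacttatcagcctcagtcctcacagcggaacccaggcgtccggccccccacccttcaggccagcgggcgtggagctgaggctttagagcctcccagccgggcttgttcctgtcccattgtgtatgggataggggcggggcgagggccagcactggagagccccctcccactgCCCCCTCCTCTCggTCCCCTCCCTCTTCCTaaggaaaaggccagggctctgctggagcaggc
ENG: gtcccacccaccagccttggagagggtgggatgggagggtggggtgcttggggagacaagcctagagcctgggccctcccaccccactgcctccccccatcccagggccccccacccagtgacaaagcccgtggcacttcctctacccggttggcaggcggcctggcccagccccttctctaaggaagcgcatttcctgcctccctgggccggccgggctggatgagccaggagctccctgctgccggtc
EPHB4: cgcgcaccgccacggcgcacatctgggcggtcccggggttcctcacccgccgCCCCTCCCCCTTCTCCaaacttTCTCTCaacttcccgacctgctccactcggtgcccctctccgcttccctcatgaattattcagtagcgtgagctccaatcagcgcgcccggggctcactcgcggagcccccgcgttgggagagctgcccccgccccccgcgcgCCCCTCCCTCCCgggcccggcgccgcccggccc
KDR: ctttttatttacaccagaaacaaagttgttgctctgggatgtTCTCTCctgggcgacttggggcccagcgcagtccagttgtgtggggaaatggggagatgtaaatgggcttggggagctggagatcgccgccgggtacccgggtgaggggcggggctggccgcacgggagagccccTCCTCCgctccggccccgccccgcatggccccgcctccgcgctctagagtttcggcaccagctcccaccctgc
FLT1: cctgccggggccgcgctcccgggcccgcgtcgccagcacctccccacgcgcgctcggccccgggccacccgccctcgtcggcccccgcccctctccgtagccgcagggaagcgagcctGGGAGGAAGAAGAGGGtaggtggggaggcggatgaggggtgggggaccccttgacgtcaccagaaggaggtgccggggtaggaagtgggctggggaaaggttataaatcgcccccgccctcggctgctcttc

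NOS3 has a run of 12 bases and, 2 bases further on, one of 16, both with the purines on the other strand, and ROBO4 has one of 17 that crosses the start, of which the printed part is the end. ENG, captured with GATA6-AS TFR1, has no match to any of the 3 motifs in its window. EPHB4 holds 2 runs and a GAGAGA, and FLT1 a run of 16 purines on its own strand with a GGAGGA inside it, in windows without a captured region. KDR has a GAGAGA and a GGAGGA but no run. TEK, not shown, also had no captured region in its windows: 1 of its 2 had no match to the 3 motifs, and the other only a run of 12. Over the 300-base windows, a purine run was found in 5 of the 7 genes (45.4% of 22199 windows in all), GGAGGA in 3 (39.6%) and GAGAGA in 2 (21.4%). The counts are per gene, at any listed start, so that TEK counts as having a run, while the shares are per window. Among all windows that a captured region overlapped, a run was present in 68.1% of 1482 with MEG3 TFR1, 62.2% of 678 with MEG3 TFR2 and 53.5% of 3685 with GATA6-AS TFR1. A match describes letters in these windows and is no binding site.

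**Figure D2:**
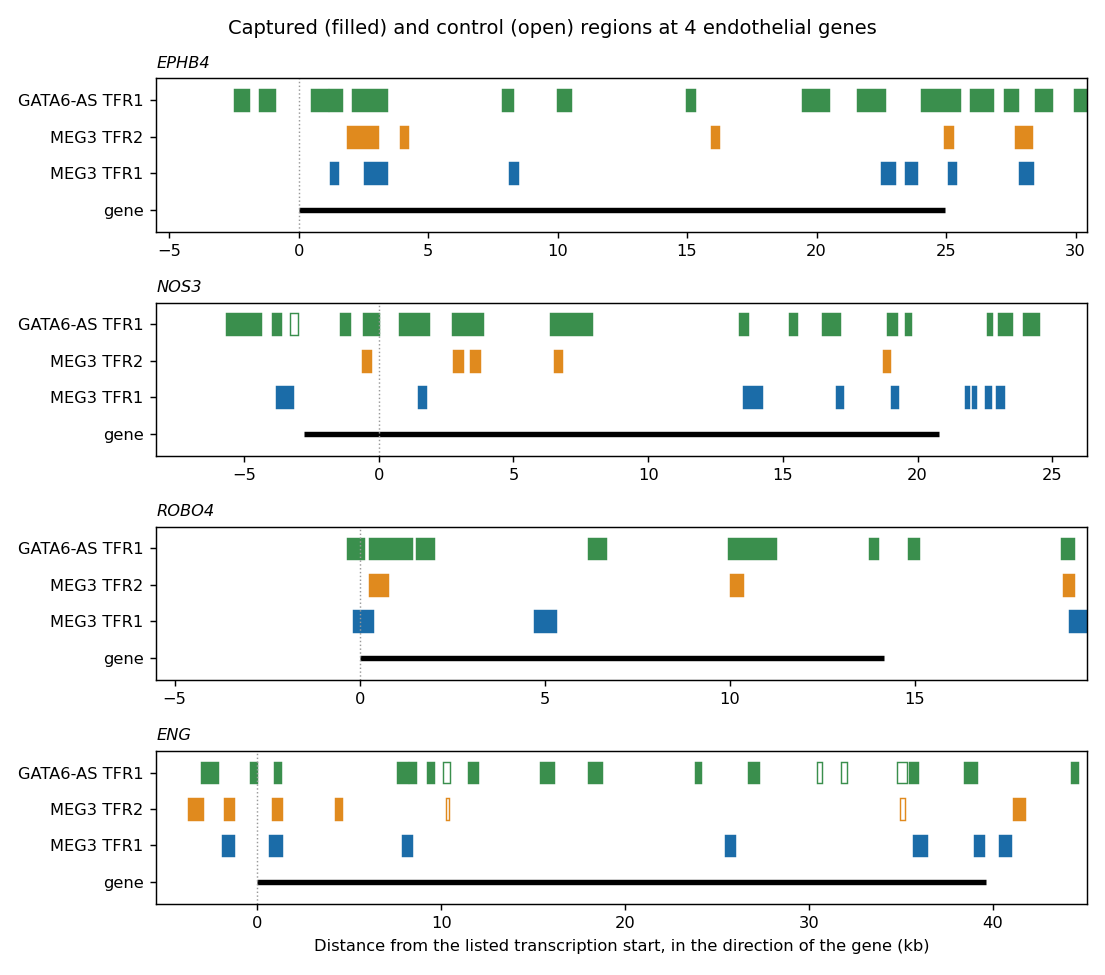
Positions of captured (filled) and control (open) regions of the 3 oligos at EPHB4, NOS3, ROBO4 and ENG, drawn to scale as the distance from the listed transcription start in the direction of the gene (kb); the black line is the gene between its RefSeq ends, and the dotted line the start. GATA6-AS TFR1 regions cross the starts of NOS3 (the first of its 2 listed), ROBO4 and ENG. ENG alone of the 4 holds control regions between its ends, 4 with GATA6-AS TFR1 and 2 with MEG3 TFR2.

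Per length of gene, NOS3, ROBO4 and EPHB4 held the densest captured regions with each of the 3 oligos, and ENG came next with MEG3 TFR1 and GATA6-AS TFR1 but behind VWF, PECAM1 and FLT1 with MEG3 TFR2. The lowest density was that of TEK with MEG3 TFR1, CDH5 with MEG3 TFR2 and KDR with GATA6-AS TFR1. For GATA6-AS TFR1 there were 42.4 regions per 100 kb in NOS3, 42.3 in ROBO4, 36.1 in EPHB4 and 30.3 in ENG, then 15.8 in CDH5, 8.53 in VWF, 4.62 in FLT1, 4.20 in PECAM1, 3.31 in TEK and none in KDR. The median over all protein-coding genes was 3.40 per 100 kb, and over the 10 genes 12.1. The spread over all genes was wide: 90.5% had a lower density than NOS3 or ROBO4, 87.7% than EPHB4 and 84.6% than ENG. For the other members with a region this share ran from 49.4% (TEK) to 74.1% (CDH5). MEG3 TFR1 had 20.0 per 100 kb in EPHB4, 17.0 in NOS3, 14.1 in ROBO4 and 12.6 in ENG, about 8 in VWF (7.96) and CDH5 (7.88), and 5.60 in PECAM1, 4.24 in KDR, 3.59 in FLT1 and 1.65 in TEK, against a median of 2.12 for all genes. For MEG3 TFR2 the order was NOS3 (21.2), EPHB4 (16.0), ROBO4 (14.1), VWF (11.4), PECAM1 (5.60), FLT1 (5.13), ENG (5.05), TEK (2.48), KDR (2.12) and CDH5 (0), against a median of 1.5. Since a density has no error here, neighbours in these orders cannot be told apart, and a single region weighs more in a short gene such as ROBO4 (14.2 kb) than in FLT1 (194.8 kb).

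The surroundings of the genes differed too. In the 500 kb on each side, without the gene itself, GATA6-AS TFR1 had 24.4 captured regions per 100 kb around EPHB4, 21.2 around ENG, 15 around NOS3, 10.4 around VWF, 7.5 around PECAM1, 7.2 around ROBO4, 7 around CDH5, 5.1 around FLT1, 2 around KDR and 1.1 around TEK. With this oligo EPHB4, NOS3, ROBO4 and ENG each had a higher density inside the gene than around it, 36.1 beside 24.4, 42.4 beside 15, 42.3 beside 7.2 and 30.3 beside 21.2. ROBO4 was thus dense in surroundings no denser than those of PECAM1. These 4 are the densest of the 10 genes, which favours a higher value inside. CDH5 (15.8 beside 7) and TEK (3.31 beside 1.1) were also above their surroundings. VWF (8.53 beside 10.4), FLT1 (4.62 beside 5.1), PECAM1 (4.20 beside 7.5) and KDR (0 beside 2) were below theirs. With MEG3 TFR1, EPHB4, NOS3, ROBO4 and ENG had 20.0 beside 16, 17.0 beside 11.4, 14.1 beside 7.4 and 12.6 beside 13.6. With MEG3 TFR2 they had 16.0 beside 12.6, 21.2 beside 6.8, 14.1 beside 4.4 and 5.05 beside 10.1. ENG was thus below its surroundings with both MEG3 oligos. In covered length, GATA6-AS TFR1 regions took up 28.2% of NOS3, 27.4% of EPHB4, 26.9% of ROBO4 and 14.9% of ENG.

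**Figure D3:**
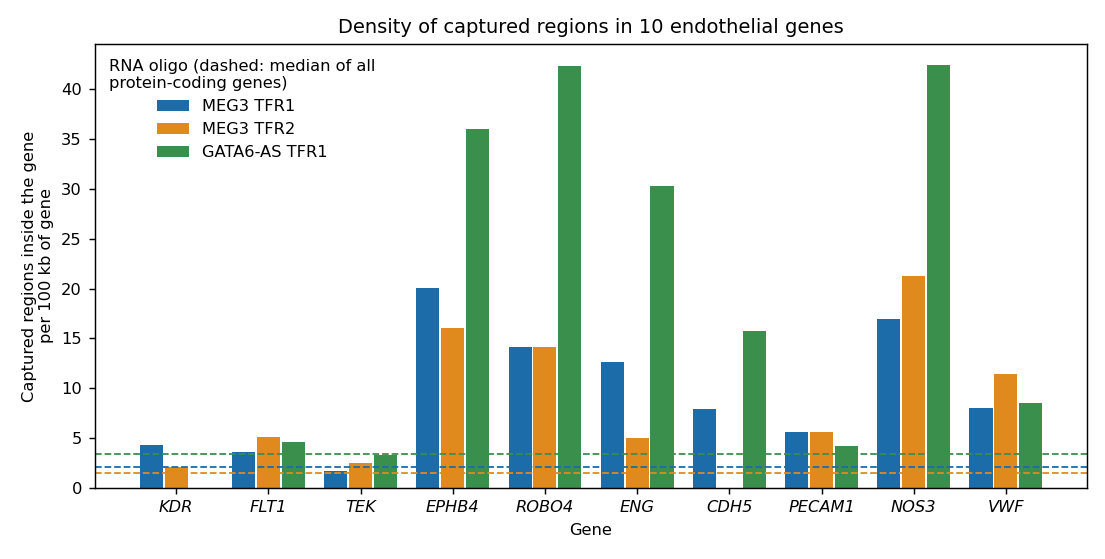
Captured regions inside each of the 10 genes per 100 kb of gene (vertical axis), one bar per oligo; dashed lines give the median over all protein-coding genes for each oligo (2.12, 1.5 and 3.40). GATA6-AS TFR1 bars reach 42.4 in NOS3 and 42.3 in ROBO4, while KDR has none. For NOS3 and ROBO4 alike, 90.5% of all protein-coding genes had a lower density with this oligo.

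Of the receptor tyrosine kinases, KDR, the main signalling receptor for VEGF-A, held the fewest regions. In its 47.1 kb lay 2 regions of MEG3 TFR1, chr4:55111051-55111350 at a log2 ratio of 1.88 and chr4:55125201-55125500 at 1.19, and 1 of MEG3 TFR2, chr4:55091051-55091350 at 1.44. None overlapped another. The nearest captured regions of GATA6-AS TFR1 lay outside, one 1.93 kb past the far end at 1.09, which had the same ends as a MEG3 TFR1 region at 1.52, and one 7.26 kb before the start at 1.17. The surroundings were sparse for all 3 oligos, with 1.9, 2.2 and 2.0 regions per 100 kb.

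FLT1, which encodes VEGF receptor 1, a high-affinity receptor that also acts as a decoy for VEGF, held 7 regions of MEG3 TFR1 (log2 ratio 0.81 to 1.69, median 1.54), 10 of MEG3 TFR2 (1.21 to 2.42, median 1.47) and 9 of GATA6-AS TFR1 (1.03 to 2.08, median 1.49). The highest were chr13:28310101-28310400 for MEG3 TFR1, chr13:28313551-28313750 for MEG3 TFR2 and chr13:28316751-28317100 for GATA6-AS TFR1, at separate places toward the far end of the gene. Only at 1 place did captured regions overlap, chr13:28468951-28469350 for MEG3 TFR1 (1.59) and chr13:28468851-28469200 for MEG3 TFR2 (1.34), about 26 kb inside the start. From the start to 73.9 kb inside the gene GATA6-AS TFR1 had no captured region, and 3 of its 6 control regions in FLT1 lay in that stretch.

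TEK, the receptor for angiopoietins, held the highest captured region of all 10 genes. It was chr9:27196801-27197150 with GATA6-AS TFR1, at a log2 ratio of 3.38, which is 10.4-fold, and the lists attribute it to EQTN as a flanking gene. The 3 other captured regions of that oligo in TEK stood at 1.47, 1.27 and 0.96. MEG3 TFR1 had 2 regions, at 2.64 and 1.05, and MEG3 TFR2 had 3, at 1.75, 1.43 and 0.99. The highest of each MEG3 oligo overlapped by 200 bp, chr9:27143101-27143400 and chr9:27143201-27143500, some 34 kb inside the start. GATA6-AS TFR1 had nothing there, and the TEK regions of GATA6-AS TFR1 and of the MEG3 oligos overlapped at no place.

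EPHB4, the receptor for ephrin-B2 that marks veins, held 5 regions of MEG3 TFR1 (1.04 to 1.65), 4 of MEG3 TFR2 (0.95 to 2.55) and 9 of GATA6-AS TFR1 (1.11 to 1.82), and no control region. The highest of MEG3 TFR2, chr7:100802251-100802600 at 2.55, and of GATA6-AS TFR1, chr7:100802001-100803500 at 1.82, overlapped at the far end of the gene, and a MEG3 TFR1 region at 2.25, chr7:100802151-100802450, lay there as well but stopped short of the listed end. Regions of all 3 oligos met between chr7:100824101 and chr7:100825650, from 1.87 kb inside the start on: MEG3 TFR1 at 1.09, MEG3 TFR2 at 0.95 and GATA6-AS TFR1 at 1.48. MEG3 TFR1 and GATA6-AS TFR1 overlapped at 3 other places, with 1.52 beside 1.15, 1.21 beside 1.35, and 1.65 beside 1.29. The last of these is the highest MEG3 TFR1 region of the gene, chr7:100826001-100826300. The first 655 bp of EPHB4 also belong to SLC12A9 in the table, so that DNA at its start cannot be assigned to either gene alone.

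ROBO4, an endothelial receptor of the Roundabout family that stabilises vessels, held 2 regions of MEG3 TFR1 (1.08 and 1.26), 2 of MEG3 TFR2 (1.45 and 1.59) and 6 of GATA6-AS TFR1 (0.98 to 2.84), and no control region. The highest, chr11:124883851-124884100 with GATA6-AS TFR1 at 2.84, which is 7.14-fold, lies at the far end and overlapped no other oligo's region. The start formed the largest shared place of the gene. There GATA6-AS TFR1 had 2 regions, at 1.38 and 1.23, MEG3 TFR1 had 1 at 1.26 and MEG3 TFR2 had 1 at 1.59, chr11:124897101-124897600, which ended 265 bp inside the gene. The purine run that crosses the ROBO4 start, shown above, lies within the regions of MEG3 TFR1 and GATA6-AS TFR1. A further overlap, of MEG3 TFR2 (1.45) and GATA6-AS TFR1 (1.63), lay about 10 kb inside.

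ENG encodes endoglin, a co-receptor for BMP9 and TGF-beta ligands. Its GATA6-AS TFR1 regions numbered 12 (0.94 to 1.93, median 1.31), those of MEG3 TFR1 5 (0.69 to 1.27, median 0.93) and those of MEG3 TFR2 2 (0.97 and 1.23). The MEG3 TFR1 values were low, as 5 of 5 lay below the median of the whole list, 1.41. Regions of all 3 oligos met 0.66 to 1.36 kb inside the start, chr9:127853301-127854000 with MEG3 TFR1 (1.06), chr9:127853301-127853850 with MEG3 TFR2 (1.23) and chr9:127853351-127853750 with GATA6-AS TFR1 (1.11). MEG3 TFR1 and GATA6-AS TFR1 overlapped at 3 more places, with 1.27 beside 1.93 at the far end, 0.69 beside 1.03, and 0.93 beside 1.09 and 1.08. The highest values of both oligos in ENG are the pair at the far end, chr9:127815151-127815700 and chr9:127815501-127816250.

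The 2 junction genes differed from each other in how the oligos met. CDH5 encodes VE-cadherin, the adhesion protein of endothelial junctions. It held 3 regions of MEG3 TFR1 (1.22, 1.43 and 1.05), 6 of GATA6-AS TFR1 (0.91 to 1.87) and none of MEG3 TFR2. Inside the gene no region of one oligo overlapped that of another. The highest of MEG3 TFR1, chr16:66370751-66371200, ended just before a GATA6-AS TFR1 region at 1.37, chr16:66371351-66371800, began, and the highest of GATA6-AS TFR1 was chr16:66394801-66395100. The lowest of GATA6-AS TFR1, chr16:66366301-66367000 at 0.91, lay across a RefSeq end of the gene, chr16:66366691. As CDH5 has no listed start, that region is not among those counted at starts above. MEG3 TFR2 regions lay just outside both ends, 1.34 kb away at 1.06 and 1.02 kb away at 0.82. The former overlapped a MEG3 TFR1 region at 1.32, chr16:66365001-66365700, which lay 0.991 kb outside the gene.

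PECAM1, or CD31, an adhesion protein of endothelial cells, platelets and leukocytes, held 4 regions of MEG3 TFR1 (1.06 to 1.55), 4 of MEG3 TFR2 (1.03 to 2.00) and 3 of GATA6-AS TFR1 (1.06 to 1.32). The highest were chr17:64348601-64348800, chr17:64340751-64340950 and chr17:64331651-64332200. The last overlapped a MEG3 TFR2 region at 1.71. Both MEG3 oligos met at chr17:64344351-64344700 (1.06 and 1.03), and all 3 oligos at chr17:64387551-64387850, with 1.5 in the MEG3 TFR1 list, 1.24 with MEG3 TFR2 and 1.22 with GATA6-AS TFR1. The authors also named PECAM1 for GATA6-AS TFR1 regions of 2.12 and 2.61 that lie 7.64 and 14.9 kb outside the RefSeq ends.

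NOS3, the endothelial nitric oxide synthase, was the gene in which the oligos met most often for its length, at 7 places in 23.6 kb. It held 4 regions of MEG3 TFR1 (0.73 to 1.94), 5 of MEG3 TFR2 (1.31 to 2.19) and 10 of GATA6-AS TFR1 (1.02 to 1.88), and no control region. All 4 regions of MEG3 TFR1 and all 5 of MEG3 TFR2 overlapped a GATA6-AS TFR1 region. For MEG3 TFR2 the pairs of values, from the start on, were 2.19 beside 1.88, then 1.55 and 2.19 beside 1.57, and 1.81 beside 1.49. For MEG3 TFR1 they were 1.65 beside 1.86, 0.73 beside 1.02 and 1.40 beside 1.24. The seventh place joined all 3 oligos near the far end, chr7:151012501-151012750 with MEG3 TFR2 (1.31), chr7:151012651-151013000 with GATA6-AS TFR1 (1.53) and chr7:151012801-151013050 with MEG3 TFR1 (1.94, the highest of that oligo in the gene). At this place the 2 MEG3 regions overlapped the GATA6-AS TFR1 region but not each other. There NOS3 shares 2380 bp with ATG9B, and 2.11 kb past its end MEG3 TFR1 had a region at 3.23, chr7:151016701-151017000, which overlapped a GATA6-AS TFR1 region at 2.14.

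VWF encodes von Willebrand factor, the clotting protein stored in endothelial granules. With 175.8 kb it held the most regions, 14 of MEG3 TFR1 (0.96 to 2.42, median 1.32), 20 of MEG3 TFR2 (0.97 to 2.58, median 1.5) and 15 of GATA6-AS TFR1 (0.94 to 2.03, median 1.19). The highest were chr12:6116351-6116700, chr12:5975851-5976000 and chr12:6118551-6118900. The oligos met at 7 places, always in pairs, and 5 of the 7 joined MEG3 TFR2 with GATA6-AS TFR1, where MEG3 TFR2 was the higher value each time: 1.52 beside 1.19, 2.58 beside 1.48, 1.5 beside 1.10, 1.60 beside 1.34 and 1.44 beside 1.13. The others were MEG3 TFR1 with GATA6-AS TFR1 (1.55 beside 0.99) and the MEG3 pair (1.30 beside 1.51). VWF has a partial copy, VWFP1, on chromosome 22, which held 1 captured region of each oligo. Reads of the copied part could be split between gene and copy, so those VWF values are uncertain.

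**Figure D4:**
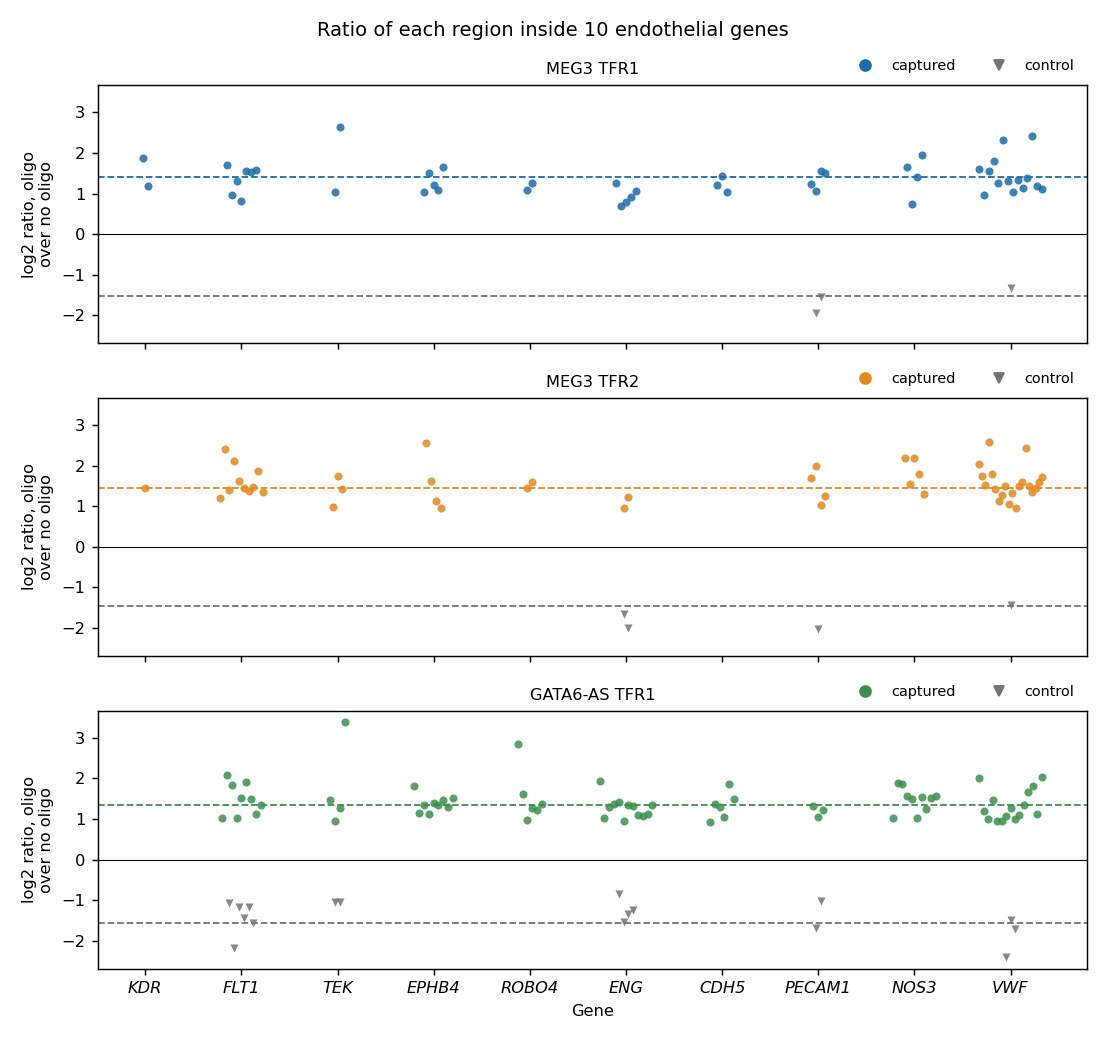
The log2 ratio of oligo over no oligo (vertical axis) of every captured region (circles) and control region (triangles) inside each of the 10 genes, one panel per oligo; dashed lines are the medians of the whole captured and control lists. The highest point is the TEK region of GATA6-AS TFR1 at 3.38, and all 5 MEG3 TFR1 points of ENG lie below the captured median of 1.41.

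Captured regions of 2 or 3 oligos overlapped at 30 places inside 8 of the 10 genes, and 41.7% of all protein-coding genes had such a place. NOS3 and VWF had 7 each, EPHB4 5, ENG 4, PECAM1 3, ROBO4 2, and FLT1 and TEK 1 each, while KDR and CDH5 had none. Regions of all 3 oligos were joined at 5 places, 1 each in EPHB4, ROBO4, PECAM1, NOS3 and ENG. Of all protein-coding genes 14.0% had a place of that kind. A place is a chain of regions in which each overlaps another. In the NOS3 place the 2 MEG3 regions overlapped the GATA6-AS TFR1 region but not each other. MEG3 TFR2 with GATA6-AS TFR1 made up 11 places, MEG3 TFR1 with GATA6-AS TFR1 10, and the 2 MEG3 oligos together without GATA6-AS TFR1 4. The whole captured list of GATA6-AS TFR1 covers 49.5 Mb, beside 38.0 Mb for MEG3 TFR1 and 26.7 Mb for MEG3 TFR2. No share over all genes was made per pair, so these counts do not show that any pair met more often than elsewhere. Overlap with another oligo was seen for 39.6% of the 48 MEG3 TFR1 regions, 41.2% of the 51 MEG3 TFR2 regions and 37.8% of the 74 GATA6-AS TFR1 regions, against 27.4%, 35.6% and 28.1% of the whole lists. All these ratios have the same no-oligo libraries below the line, so the 3 lists are not independent. Overlapping regions were not much higher than the others with the MEG3 oligos, and slightly lower with GATA6-AS TFR1. The medians were 1.30 and 1.24 with MEG3 TFR1, 1.52 and 1.45 with MEG3 TFR2, and 1.30 and 1.34 with GATA6-AS TFR1.

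Control regions, with less signal with the oligo than without, lay in 2 genes for MEG3 TFR1 (PECAM1 and VWF, background 20.3%), 3 for MEG3 TFR2 (PECAM1, VWF and ENG, background 18.5%) and 5 for GATA6-AS TFR1 (FLT1, TEK, PECAM1, VWF and ENG, background 38.2%). The authors' unmarked names give the same counts of genes, 2, 3 and 5, against 17.4%, 15.9% and 28.8%. EPHB4, ROBO4, KDR, CDH5 and NOS3 held none. Counted with those that name a gene from outside, there were 25 control places, of which 4 were listed for all 3 oligos, 5 for 2 and 16 for 1. The 4 common ones were chr17:64332701-64332900 in PECAM1 (log2 ratios -1.95 with MEG3 TFR1, -2.02 with MEG3 TFR2 and -1.02 with GATA6-AS TFR1), chr12:5968601-5968900 in VWF (-1.34, -1.43 and -2.40), and 2 outside the gene ends. These were chr17:64401401-64401700, named PECAM1 (-2.35, -1.5 and -1.34), and chr13:28299501-28299650, just past the end of FLT1 (-3.17, -1.91 and -1.77). Here too the 3 lists share the no-oligo libraries. In VWF the common control place lies next to a captured place of MEG3 TFR2 and GATA6-AS TFR1, chr12:5967901-5968350. In ENG, GATA6-AS TFR1 had 4 control regions (-0.84 to -1.53) among its 12 captured ones, and MEG3 TFR2 had 2 at the same places as 2 of these, at -1.66 and -2.00.

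A wider list of 46 genes of the same systems, chosen by name, is given for comparison. A captured region lay inside 38 of them with MEG3 TFR1, 35 with MEG3 TFR2 and 35 with GATA6-AS TFR1, beside the backgrounds given above, and only VEGFD, EFNB2, S1PR1 and VCAM1 held none of any oligo. Their median densities were 6.10, 3.47 and 6.78 regions per 100 kb, beside 7.92, 5.37 and 12.1 for the 10 genes. Among the 17 ligands and partners, 13, 12 and 12 held a region in the order of the oligos. The highest values were 3.17 for ANGPT1, the ligand of TEK (MEG3 TFR2), 3.17 for UNC5B, a netrin receptor that also binds ROBO4 (MEG3 TFR1), and 2.91 for VEGFB, a ligand of FLT1 (MEG3 TFR2). Of the 7 related receptors 6, 6 and 6 held a region, with medians of 12.6, 9.45 and 36.5 per 100 kb. The last is the highest median of any group. With GATA6-AS TFR1 the ligands and partners had 3.14, the surface and secreted genes 6.09 and the transcription factors 7.99. EPHA2, an ephrin-A receptor, reached 3.41 with that oligo, NRP2, a VEGF-C co-receptor, 2.16 with the same, and FLT4, the lymphatic VEGF receptor, 3.36 with MEG3 TFR1. Of the 16 surface and secreted genes 13, 12 and 11 held one. PROCR, the receptor for protein C, had the highest value of the list, 4.27 or 19.2-fold with GATA6-AS TFR1 (chr20:35175201-35175650), and the junction adhesion genes JAM3 (MEG3 TFR1) and JAM2 (GATA6-AS TFR1) reached 2.70 and 2.56. Of the 6 transcription factors 6, 5 and 6 held one, led by ELK3 at 2.96 and FLI1 at 2.52, both ETS factors and both with MEG3 TFR1, and TAL1, a blood and endothelial regulator, at 2.56 with GATA6-AS TFR1.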

How the data were processed

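The 8 libraries hold DNA recovered with or without an oligo. The submitters' processing notes name the aligner BWA 0.7.15-r1140, the quality tool FastQC and the build hg38. Not given in the sources used here are the region caller, its settings and how libraries were scaled. The 6 deposited lists give, per region, a position, gene names and 1 log2 ratio made by the authors, read as log2 from the values. All region ends fall on a grid of 50 bp.

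Regions were taken by the authors' names and, as a second count, by an overlap of at least 1 bp with a gene's ends in RefSeq, GRCh38.p14, with coordinates printed from 1, using Python 3.11.15 and matplotlib 3.10.9. Densities are regions per 100 kb, and motifs were searched in windows of 300 bases. Counting regions inside genes, joining regions and merging them into shared places were tested on simulated regions. The 10 genes, the list of 46 and the motifs were chosen with earlier results of these data known. All 10 genes are named, and from the list at most the 3 genes per group with the highest captured log2 ratio. Alternatives were a threshold of 1.5 on the size of the log2 ratio, overlapped names only, joining regions within 200 bp, genes widened by 5 kb, and an overlap of 0.5 of the shorter region. Exon and intron positions and region sequences were not used here.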

Additional observations from a re-analysis of the deposited data

Results flagged for a closer look

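Near NOS3, part of 1 place moved in opposite directions with 2 oligos. A MEG3 TFR1 captured region, chr7:150989951-150990600, had a log2 ratio of 0.97, and a GATA6-AS TFR1 control region, chr7:150990501-150990800, had -1.17, so that 100 bp are listed with more signal than the no-oligo libraries in one list and with less in the other. The place lies 417 bp outside the RefSeq end of NOS3 and at position -3182 from its listed start, counted in the direction of the gene. The same MEG3 TFR1 region also overlapped a GATA6-AS TFR1 captured region, chr7:150989801-150990150, with a log2 ratio of 1.03. Over that part the 2 oligos had the same direction. The difference between the oligos was not tested.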

How the results depend on the processing

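Of 46 alternatives, 32 left the value within 1.5 times its count, or within 0.1 of its median. A threshold of 1.5 on the size of the log2 ratio moved the genes with a captured region of MEG3 TFR2 from 8 to 5 by name, the captured regions from 45, 56 and 67 to 14, 22 and 21 (MEG3 TFR1, MEG3 TFR2, GATA6-AS TFR1), the GATA6-AS TFR1 control regions from 21 to 10, the median log2 ratios from 1.30, 1.44 and 1.32 to 1.65, 1.78 and 1.84, which the threshold itself raises, and the shared places by name from 16 to 1. By position, 6 of 30 shared places were left at that threshold, and 28 with an overlap of 0.5 of the shorter region. Counting overlapped names only moved control regions from 7 to 4 (MEG3 TFR1) and from 9 to 5 (MEG3 TFR2). Placing regions by gene ends, an alternative chosen after seeing the data, moved these to 3 and 4, and the shared places from 16 to 30. No paired analysis was possible because the lists hold no value per library, and for the same reason no library could be left out. The names of the lists carry a value of 2.5 whose meaning is not given and which may be a calling threshold, and regions below the threshold are not listed, so a gene with no region is not shown to lack binding.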
